A study of Homo sapiens with 21 samples.

Results

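Potassium channel genes were followed as the open chromatin sites whose nearest annotated gene carried a symbol that starts with KCN and has no hyphen. They held 2964 of the 367900 sites of the series and belonged to 95 genes, 2 of which, KCNQ1OT1 and KCNQ1DN, are non-coding transcripts of the KCNQ1 locus with 46 sites. The filter on low counts removed 81 of the 2964 sites, which left 2883 of 357029 tested sites. A further 295 sites whose KCN symbol has a hyphen (antisense and intronic transcripts) were not members. A nearest gene is a label of position and need not be the gene that a site regulates.

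Open DNA was mapped by ATAC-seq, which relies on cuts by the Tn5 transposase, in the human neuroblastoma line SK-N-BE(2) 72 h after lentiviral transduction of short hairpin RNAs. The 7 groups held 3 libraries each: Control (a non-silencing hairpin), shARID1A.2 and shARID1A.4 against ARID1A, shARID1B.2 and shARID1B.3 against ARID1B, and the combinations shARID1A/B.2.3 and shARID1A/B.4.2 against both genes. ARID1A and ARID1B are alternative subunits of the BAF chromatin remodelling complex, and the design asks what their single and combined silencing does to open chromatin. All groups carried a lentivirus and all come from one cell line.

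Potassium channels let potassium ions leave the cell and so set the resting membrane potential and end action potentials. The voltage-gated family (KCNA to KCNH, KCNQ, KCNS, KCNV) opens on depolarisation, partly with the help of auxiliary subunits (KCNAB, KCNE, KCNIP). The inward rectifiers (KCNJ) and the 2-pore-domain leak channels (KCNK) hold the membrane near rest. Calcium-activated channels (KCNMA1 with its KCNMB subunits, KCNN) and the related KCNT and KCNU1 channels answer to ions inside the cell. Neurons and neuroendocrine cells use many of these genes, and neuroblastoma descends from the sympathetic lineage.

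The libraries held 16140029 to 44472230 reads in sites, a ratio of 2.76, and the KCN sites took 0.617 to 0.638% of them in Control and 0.572 to 0.611% in the combinations. The share of reads in promoter sites was 20.0 to 20.6% in Control and 23.4 to 25.1% in the combinations, so the scaling of the libraries bears on the direction of small changes. Sites were scaled by the trimmed mean of M-values (TMM) over all sites. With scaling factors from promoter sites alone, the median log2 change of all tested sites after combined silencing moved from 0.03 to −0.20. That alternative is given below for counts over all KCN sites, promoters and gene sums, and where it altered a named site or called gene sum. It is not given for site counts by strength, annotation class, family or single gene, which may move too. Of markers checked for open sites within 1 kb of the start site in Control, in CPM (the usual depth-scaled read count of a site, here with TMM factors), adrenergic HAND2 (43.9), GATA3 (15.6), DBH (10.3) and TH (2.43) and mesenchymal SNAI2 (36.0) and FOSL1 (7.63) had one, as did epithelial EPCAM (6.62), while ISL1, PRRX1, PTPRC, CD3E, ALB and KRT5 had none. A hairpin acts on the transcript, so accessibility gives no check of the silencing itself. In such bulk libraries, a lower signal in every cell and a loss of signal in part of the cells cannot be told apart.

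The sites that moved most, named by a fixed rule, differed in base composition. The central 300 bases (GRCh38, plus strand) of 4 sites that closed and 1 that opened are shown, since the results below turn on them. Capitals mark matches, on either strand, to these short motifs: the motif of AP-1, spelled TGANTCA, the motif of GATA factors, spelled AGATAA, the motif of TEAD factors, spelled GGAATG, the E-boxes CAGCTG and CATCTG, and part of the REST motif, spelled TTCAGCACC. A match is a description of the letters and not of a bound factor.
KCNJ2 (intergenic, closed, chr17:70394929-70395228): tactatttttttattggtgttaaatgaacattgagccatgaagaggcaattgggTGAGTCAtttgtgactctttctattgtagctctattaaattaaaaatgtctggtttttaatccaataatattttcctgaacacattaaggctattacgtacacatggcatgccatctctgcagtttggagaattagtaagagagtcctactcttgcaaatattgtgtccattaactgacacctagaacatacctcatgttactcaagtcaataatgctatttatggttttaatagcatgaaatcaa
KCNV2 (intron, closed, chr9:2723217-2723516): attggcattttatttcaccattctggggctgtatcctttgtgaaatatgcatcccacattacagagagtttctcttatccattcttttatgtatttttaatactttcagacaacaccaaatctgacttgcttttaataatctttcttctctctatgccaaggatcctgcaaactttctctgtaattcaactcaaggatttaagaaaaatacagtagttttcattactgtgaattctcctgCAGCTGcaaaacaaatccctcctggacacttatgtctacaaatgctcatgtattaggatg
KCNMA1 (intergenic, closed, chr10:77713909-77714208): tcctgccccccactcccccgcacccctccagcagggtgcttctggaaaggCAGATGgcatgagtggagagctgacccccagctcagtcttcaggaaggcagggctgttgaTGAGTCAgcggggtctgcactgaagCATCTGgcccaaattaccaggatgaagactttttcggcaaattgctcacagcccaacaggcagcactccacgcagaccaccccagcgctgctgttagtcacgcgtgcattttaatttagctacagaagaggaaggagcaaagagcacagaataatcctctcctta
KCNK2 (promoter, closed, chr1:215004465-215004764): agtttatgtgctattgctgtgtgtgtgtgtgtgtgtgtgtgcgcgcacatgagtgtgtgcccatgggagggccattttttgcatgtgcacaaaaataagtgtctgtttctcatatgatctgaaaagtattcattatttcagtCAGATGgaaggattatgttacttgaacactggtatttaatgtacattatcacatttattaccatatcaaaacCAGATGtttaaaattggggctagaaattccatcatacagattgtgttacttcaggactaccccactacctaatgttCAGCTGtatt
KCNJ11 (promoter, opened, chr11:17389305-17389604): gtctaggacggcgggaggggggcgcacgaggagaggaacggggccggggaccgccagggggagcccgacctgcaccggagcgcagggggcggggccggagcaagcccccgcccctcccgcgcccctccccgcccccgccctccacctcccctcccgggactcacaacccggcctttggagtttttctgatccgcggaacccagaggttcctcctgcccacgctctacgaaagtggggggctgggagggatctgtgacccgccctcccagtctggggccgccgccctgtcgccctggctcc

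Of these 5 windows, those of the closed KCNJ2, KCNV2 and KCNK2 sites had a GC content of 33.0, 35.0 and 37.7%, and the KCNMA1 window one of 55.3%. The opened KCNJ11 window reached 74.7% and held no match. The windows of the opened KCNJ8, KCNA3 and KCNE2 sites, which rose more and are not printed, had 32.7, 40.0 and 53.7%. Of these, the KCNA3 window held 2 GATA matches. Across all 262 KCN sites closed by combined silencing, the median GC content was 46.0%, the same as over all 2883 KCN sites, and it was 55.3% at the 51 opened KCN sites. Over all tested sites, the closed and opened medians lay further apart, at 43.7 and 61.7%.

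The motif shares showed which letters the closed sites held more often. The E-box CATCTG stood in 30.5% of the closed KCN windows, in 11.8% of the opened ones, in 22.8% of all KCN windows and in 23.0% of all tested windows. CAGCTG stood in 22.1, 13.7, 16.9 and 17.6% of the same 4 sets, and the AP-1 motif in 14.1, 1.96, 10.9 and 10.9%. Closed sites over the whole series held these motifs at similar shares. CATCTG stood in 33.0% of all closed and 13.0% of all opened windows, CAGCTG in 20.2 and 16.1%, and AP-1 in 14.3 and 5.54%. The GATA motif stood in 16.8% of closed, 7.84% of opened and 16.5% of all KCN windows. Over all tested sites, it stood in 24.7% of closed, 7.92% of opened and 17.0% of all windows. TEAD (15.6% of closed against 16.5% of all KCN windows) and the REST letters (0.382 against 0.451%) were rare or showed no marked difference. These shares are descriptions without a test.

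Combined silencing closed far more KCN sites than it opened. Of 2883 tested KCN sites, 262 (9.09%) were closed and 51 (1.77%) opened at a false discovery rate (FDR) under 0.01 when the 6 combination libraries were compared with the 3 Control libraries (edgeR quasi-likelihood test, Benjamini-Hochberg adjustment over all tested sites). Over all tested sites, 10.3% were closed and 3.43% opened, so the closed share of KCN sites was near the background and the opened share below it. The closed sites lay at 65 genes and the opened ones at 34, 103 closed sites changed by at least 1 on the log2 scale, and the medians of the called sites were −0.88 and 0.63. With promoter scaling the counts were 424 closed and 11 opened, and DESeq2 called 216 closed and 33 opened. The background moved too: promoter scaling closed 15.9% and opened 0.729% of all tested sites, and DESeq2 closed 8.25% and opened 2.46%. Without Control replicate 2 the opened count was 33.

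Single silencing called fewer KCN sites. ARID1A silencing closed 139 KCN sites (4.82% against 5.37% of all sites) and opened 30 (1.04% against 1.67% of all sites), which became 259 and 8 under promoter scaling, and the opened count was 9 without Control replicate 2. ARID1B silencing closed 87 (3.02% against 3.53% of all sites) and opened 24 (0.832% against 1.39% of all sites), or 151 and 10 under promoter scaling. Of all tested sites, promoter scaling closed 9.55% and opened 0.336% after ARID1A silencing. After ARID1B silencing it closed 5.77% and opened 0.588% of them. These comparisons share the Control libraries.

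The 6 hairpin groups, each against the same Control libraries, spread widely. shARID1A.2 closed 113 KCN sites (3.92% against 4.54% of all sites) and opened 12 (0.416% against 0.834% of all sites), and shARID1A.4 closed 101 (3.50% against 4.17% of all sites) and opened 44 (1.53% against 2.28% of all sites). shARID1B.2 closed 44 (1.53% against 1.84% of all sites) and opened 25 (0.867% against 1.34% of all sites), whereas shARID1B.3 closed 122 (4.23% against 4.88% of all sites) and opened 64 (2.22% against 3.12% of all sites). shARID1A/B.2.3 closed the most, 269 (9.33% against 10.4% of all sites), with 50 opened (1.73% against 2.85% of all sites), and shARID1A/B.4.2 closed 179 (6.21% against 7.37% of all sites) and opened 63 (2.19% against 3.97% of all sites). The 4 deepest libraries, of 29857760 to 44472230 reads, were replicates 1 and 2 of shARID1B.3 and of shARID1A/B.2.3, and after thinning every library to the smallest the shARID1B.3 opened count was 40. Promoter scaling gave, in the same order, 168 closed and 7 opened, 239 and 10, 70 and 16, 202 and 24, 325 and 27, and 441 and 14, so with it shARID1A/B.4.2 closed the most KCN sites. The shares of all tested sites were then, in that order, 6.75% closed and 0.355% opened, 8.28 and 0.436%, 2.59 and 0.917%, 8.13 and 1.18%, 12.8 and 1.1%, and 15.1 and 0.81%.

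**Figure D1:**
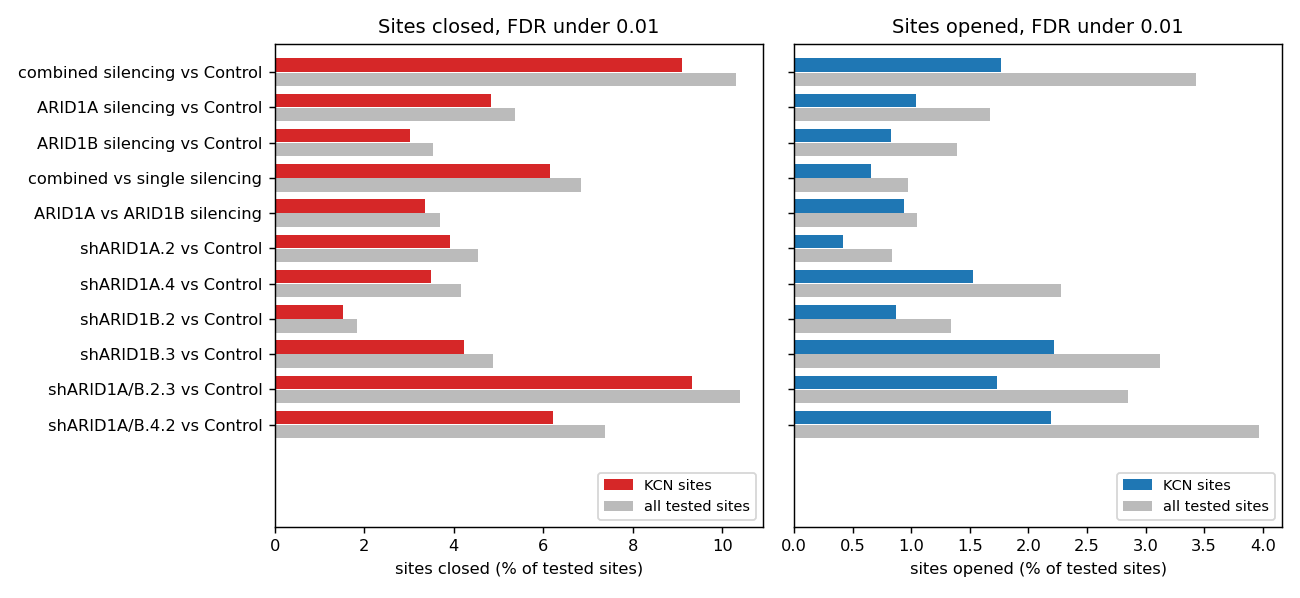
Shares of KCN sites (coloured) and of all tested sites (grey) closed (left) and opened (right) at an FDR under 0.01 in the 11 comparisons, in percent of tested sites. The KCN shares follow the background in every comparison and lie somewhat below it, with 9.09 against 10.3% closed and 1.77 against 3.43% opened after combined silencing.

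The contrasts that leave out Control gave direct tests between silenced groups. Combined against single silencing (the mean of the 2 combinations against the mean of the 4 single hairpins) closed 177 KCN sites (6.14% against 6.85% of all sites) and opened 19 (0.659% against 0.969% of all sites), or 227 and 8 under promoter scaling. ARID1A against ARID1B silencing had 97 KCN sites lower (3.36% against 3.69% of all sites) and 27 higher (0.937% against 1.05% of all sites), or 118 and 18 under promoter scaling. With that scaling, combined against single silencing closed 8.76% and opened 0.313% of all tested sites. ARID1A against ARID1B silencing then had 4.5% of them lower and 0.748% higher.

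The share of sites called closed rose with the strength of a site. A given change is easier to call at a stronger site, and the part of this in the rise was not tested. The median log2 change of KCN sites was 0.064 under 1 CPM, 0.009 between 1 and 3 CPM and −0.069 from 3 CPM. Over all tested sites it was 0.063, 0.004 and 0.015. Among KCN sites of at least 3 CPM on average, 133 of 439 (30.3%) were closed and 7.29% opened, against 26.1 and 15.0% of all tested sites of that strength. Among the 1475 KCN sites under 1 CPM the closed share was 2.71% (all sites 3.77%), and between 1 and 3 CPM it was 9.18% (all sites 11.6%). Of 1052 tested intronic KCN sites, 119 closed (11.3%, beside 18462 of all 153781 intronic sites, or 12%) and 13 opened (1.24% against 2.09% of all intronic sites). Of 1674 intergenic ones, 123 closed (7.35% against 9.39% of all intergenic sites) and 21 opened (1.25% against 1.9% of all intergenic sites). KCN sites in an intron of another gene closed in 42 of 229 cases (18.3% against 12.9% of all tested sites of that kind). Of these 42, 14 were KCNK9 sites in introns of TRAPPC9. Those in an intron of their own gene closed in 77 of 823 (9.36% against 11.4% of all tested sites of that kind).

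At KCN promoters, more sites opened than closed, an order that turned round under promoter scaling. Of 59 tested KCN promoter sites at 52 genes, 5 closed (8.47% against 4.24% of all promoters) and 10 opened (16.9% against 33.4% of all promoters), which became 11 and 4 under promoter scaling. The counts also moved with single libraries: 6 closed and 6 opened without Control replicate 2, 3 closed without Control replicate 1, Control replicate 3 or replicate 2 of shARID1A/B.4.2, 16 opened without replicate 2 of shARID1A/B.2.3, and 2 closed after thinning every library to the smallest. The 5 that closed belonged to KCNK2 (log2 −1.14), KCND1 (−0.80), KCNG4 (−0.63), KCNIP3 (−0.37) and KCNA3 (−0.27). The 10 that opened included KCNJ11 (0.66), KCNQ1OT1 (0.53), KCNK3 (0.52), KCNJ4 (0.50), KCNN1 (0.49), KCNG1 (0.46), KCNH1 (0.39), KCNH2 (0.32) and KCNK12 (0.30). Of the 33 genes with both a promoter site and a closed site elsewhere, 24 had a promoter that passed the test in neither direction, 6 had an opened promoter and 3 (KCNA3, KCNG4, KCNK2) a closed one. The same split was not made over all genes, so it is not a trait particular to KCN genes. Closed promoters were also few over the whole series, at 4.24% against 33.4% opened.

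**Figure D2:**
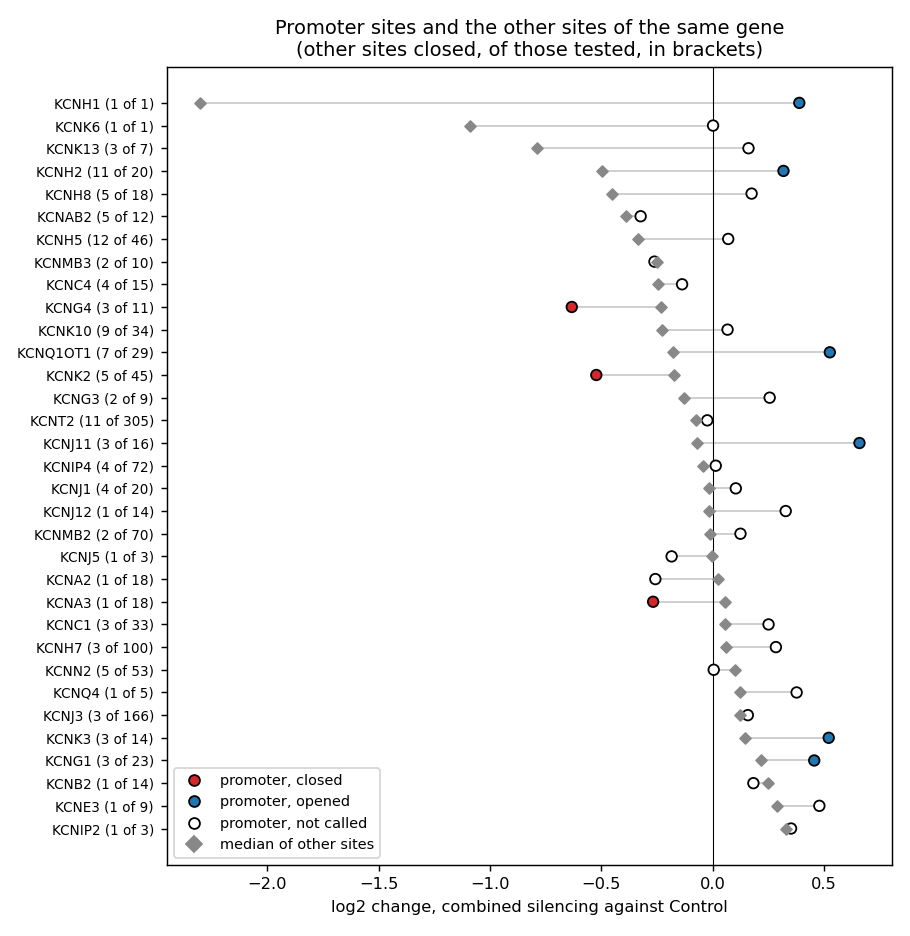
Log2 change after combined silencing against Control at the promoter sites (circles, median where a gene has several; red closed, blue opened, white not called) and the median of the other sites (grey diamonds) of the 33 KCN genes that have a promoter site and at least 1 closed site elsewhere. Promoters of 3 genes are red and of 6 blue. The closed site elsewhere is a condition for being drawn, and the same split was not made over all genes.

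Summing all reads at the sites of a gene gave 1 value per gene and library. By this measure, 36 of 95 KCN genes (37.9%) were lower and 6 (6.32%) higher after combined silencing (edgeR, FDR under 0.01), where 20.9 and 15.9% of all 26743 genes were. ARID1A silencing lowered 23 (24.2% against 14.4% of all genes) and raised 1 (1.05% against 7.28% of all genes), and ARID1B silencing lowered 14 (14.7% against 9.95% of all genes) and raised 3 (3.16% against 5.44% of all genes). KCN genes had a median of 14 tested sites each and all genes 5, and the part of this in the higher gene share was not tested. Promoter scaling called 51 lower and 1 higher after combined silencing, 40 and 1 after ARID1A silencing, and 24 and 2 after ARID1B silencing. The median log2 change of the 95 gene sums was −0.10, against 0.02 over all genes.

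**Figure D3:**
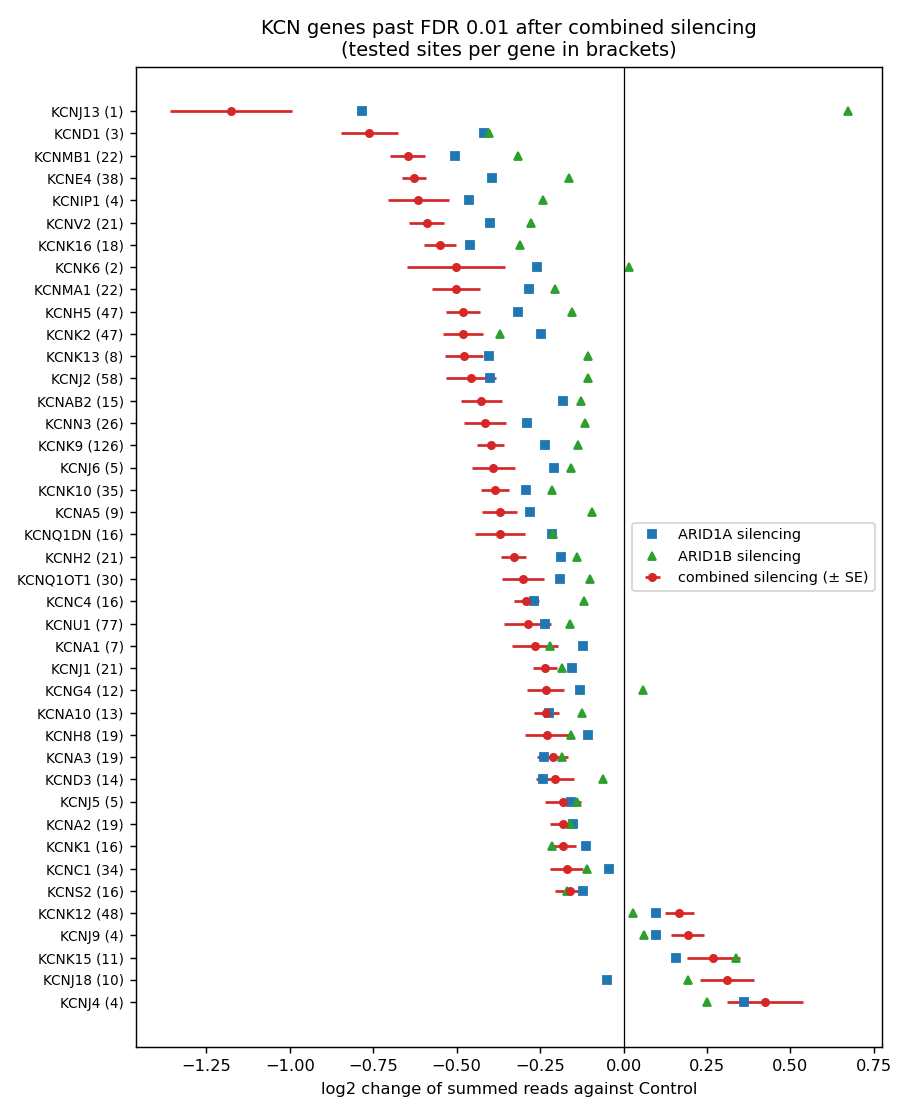
Log2 change of summed reads against Control for 41 of the 42 KCN genes past an FDR of 0.01 after combined silencing (red points with standard errors), with the changes after ARID1A silencing (blue squares) and ARID1B silencing (green triangles) of the same genes, which share the Control libraries. The 36 genes that fell reach −1.18 at KCNJ13, which rests on 1 site, and the 5 drawn that rose reach 0.42 at KCNJ4.

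Among the voltage-gated pores, the modifier KCNV2, a silent subunit that acts in photoreceptors with other Kv channels, fell at 6 of its 21 sites, 5 intergenic and 1 intronic. Its leading site (chr9:2722741-2723994, intron 1 of the gene) read 8.57, 9.99 and 7.62 CPM in Control, 2.30, 2.60 and 2.37 in shARID1A/B.2.3 and 3.00, 2.99 and 3.53 in shARID1A/B.4.2, a log2 change of −1.65 ± 0.11 (standard error, adjusted p = 9.16e-23 by edgeR). No combination library reached the lowest Control library, which the rule that named this site required. The site also fell after ARID1B silencing (−1.41), to a mean of 2.46 CPM in shARID1B.3, and less after ARID1A silencing (−0.61), and the 2 single effects differed by 0.80 ± 0.10 (adjusted p = 8.68e-10, edgeR). Summed over all its sites, KCNV2 read 58.5 ± 3.51 CPM in Control (mean and SD, n = 3) against 38.7 ± 2.43 and 38.9 ± 1.23 in the combinations, a log2 change of −0.59.

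KCNH2, which encodes the hERG channel of the delayed rectifier current, had the largest closed share of the genes with at least 5 tested sites, with 11 of 21. The 11 sites lay 6.4 to 76.8 kb from the start site, at log2 changes from −0.42 to −1.29, in introns and exons of the gene and downstream of it. Its promoter site (chr7:150977336-150979833) went the other way, from 38.4, 33.1 and 34.3 CPM in Control to 42.4, 40.1 and 43.5 in shARID1A/B.2.3 and 45.5, 46.8 and 45.6 in shARID1A/B.4.2, a rise of 0.32 ± 0.08 on the log2 scale (adjusted p = 0.000648, edgeR). The promoter groups did not overlap, but the call was lost under promoter scaling and without Control replicate 2 or 3. Summed over all sites, the gene fell by 0.33 on the log2 scale.

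Other voltage-gated pores changed at single distal sites. At KCNH1 (Kv10.1), an intergenic site 21.1 kb from the start (chr1:211154752-211155686) read 2.84, 3.08 and 3.25 CPM in Control and 0.488 to 0.755 in the 6 combination libraries, and it fell by 2.30 ± 0.19 on the log2 scale (adjusted p = 8.00e-19, edgeR). shARID1B.3, with a mean of 0.613 CPM, was as low there as the combinations, and the ARID1B effect was larger than the ARID1A effect by 1.02 ± 0.17. The promoter site counted for KCNH1 opened by 0.39. It lies 0.2 kb from the nearest KCNH1 start but is annotated as the promoter of the transcript KCNH1-IT1. The KCNA2 site 28.4 kb upstream (chr1:110634458-110635045) went from a mean of 3.21 CPM to 0.937 and 0.895 (log2 −1.78 ± 0.18), and here the ARID1A and ARID1B changes lay side by side at −1.20 and −1.12.

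KCNA5 and KCNG4 were among the genes with the largest closed shares. KCNA5, the Kv1.5 pore of the atrial ultrarapid current, closed at 3 of 9 sites, one of them over its single exon, and its summed reads fell by 0.37. KCNG4, a silent modifier, closed at 4 of 12 sites including its promoter, where Control read 3.03, 3.04 and 3.05 CPM and the combinations 1.35 to 2.39. That call was lost after thinning to the smallest library.

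KCND1 stood out among the pores because its promoter carried the change. The promoter site (chrX:48970722-48972883) read 11.7, 10.2 and 12.6 CPM in Control, 6.80, 4.67 and 6.42 in shARID1A/B.2.3 and 7.35, 7.32 and 7.51 in shARID1A/B.4.2, a fall of 0.80 ± 0.10 on the log2 scale (adjusted p = 5.38e-10, edgeR). Every silenced group lay below Control in the mean, between 5.96 and 9.24 CPM. Its sum over 3 sites fell by 0.76.

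KCNA3 held 1 opened and 2 closed sites. An intergenic site 16.8 kb upstream (chr1:110688272-110688924) opened from 0.577, 0.945 and 0.762 CPM in Control to 2.17, 2.18 and 2.20 in shARID1A/B.2.3 and 2.11, 2.07 and 1.76 in shARID1A/B.4.2 (log2 1.43 ± 0.20, adjusted p = 1.11e-08, edgeR). That the combinations did not overlap Control was required by the rule that named this site. Of the silenced groups, shARID1A.2 alone, at 0.559 CPM, did not lie above Control. Another intergenic site, 63.6 kb upstream, closed by 0.90 on the log2 scale, from a mean of 5.60 CPM to 2.79 and 3.22, the promoter closed by 0.27, and the summed reads of KCNA3 fell by 0.21.

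KCNQ3 and KCNQ5 encode subunits of the neuronal M-current, a brake on repetitive firing. None of the 66 tested KCNQ3 sites was called, and its summed log2 change was 0.00 ± 0.10. The exon 1 site of KCNQ5, among the strongest KCN sites, read 59.2 ± 3.49 CPM in Control and lay at 53.9 and 52.4 CPM in shARID1A.2 and shARID1A/B.2.3 and at 71.5 and 75.9 CPM in shARID1A.4 and shARID1A/B.4.2, so that the combined change of 0.09 did not pass the test.

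Other fixed sites of the voltage-gated group give the strongest site of a gene whatever its change. The strongest site of KCND3 fell from 7.38 ± 0.91 to 5.12 ± 0.402 and 5.30 ± 0.342 CPM (log2 −0.51), a call lost without Control replicate 3. KCNA1 at exon 1 read 8.11 CPM in Control and 7.62 and 6.43 in the combinations (−0.22 ± 0.10, adjusted p = 0.129, edgeR), a difference that passed under promoter scaling.

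Auxiliary subunit genes fell at many distal sites. KCNE4, a single-pass subunit that inhibits Kv channels, closed at 12 of its 38 sites, of which 11 were intergenic and lay up to 246.0 kb from the start, and 1 overlapped the end of the transcript. The named site at 114.0 kb (chr2:223165156-223166621) read 5.82, 6.16 and 4.77 CPM in Control, 1.44, 1.46 and 1.45 in shARID1A/B.2.3 and 1.52, 1.84 and 2.18 in shARID1A/B.4.2 (log2 −1.76 ± 0.14, adjusted p = 1.71e-19, edgeR). The shARID1B.2 libraries stayed at 4.31 to 6.49 CPM, within reach of Control, whereas shARID1A.2 read 1.58 to 2.07. The summed reads of KCNE4 were tight, at 134 ± 1.05 CPM in Control against 81.5 ± 1.37 and 91.9 ± 1.51 in the combinations (log2 −0.63 ± 0.04), and shARID1B.2 again kept 136 ± 3.55.

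KCNE2, whose product partners several pores, held a weak intergenic site that opened from 2.36, 1.60 and 2.04 CPM to 2.95, 2.95 and 2.95 in shARID1A/B.2.3 and 3.54, 3.82 and 3.71 in shARID1A/B.4.2 (log2 0.73 ± 0.15), a call lost under promoter scaling. KCNAB2, a cytoplasmic beta subunit, closed at 5 of 15 sites, all intronic, and its sum fell by 0.43. KCNIP4, another Kv4 partner, was listed for its strongest site, a promoter, which read 5.54 ± 0.311 CPM in Control, 5.22 ± 0.458 in shARID1A/B.2.3 and 5.996 ± 0.545 in shARID1A/B.4.2, a change of 0.01 ± 0.11 whose sign turned under 2 other settings and without single libraries. The KCNAB family as a whole closed at 21.6% of 37 sites, the KCNE family at 23.2% of 69 and the KCNIP family at 7.22% of 97, beside 10.3% of all tested sites.

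The annotated start of KCNMB1 lies within the span of KCNIP1, and the deposited labels divide their sites only by distance. KCNIP1 encodes a calcium-binding partner of Kv4 channels and KCNMB1 the beta1 subunit of the BK channel. Of the 22 sites assigned to KCNMB1, 16 lay in introns of KCNIP1, and 6 of the 7 closed ones were among those 16. The strongest (chr5:170522098-170524230, intron 1 of KCNIP1) read 20.3, 17.9 and 20.4 CPM in Control, 7.35, 5.92 and 6.99 in shARID1A/B.2.3 and 5.91, 5.71 and 6.26 in shARID1A/B.4.2 (log2 −1.63 ± 0.09, adjusted p = 2.04e-27, edgeR). The single groups fell in between, at 8.44 and 9.09 CPM for the ARID1A hairpins and 11.7 and 15.4 CPM for the ARID1B hairpins, and the ARID1A effect was larger by 0.61 ± 0.08. The exon 1 site of KCNIP1 fell from 14.3 to 7.25 CPM in shARID1A/B.2.3 (log2 −0.83 over both combinations). The KCNMB1 and KCNIP1 sums fell by 0.65 and 0.62.

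The calcium-activated pore KCNMA1 (BK) closed at 8 of 22 sites and opened at 1. KCNMA1 is the only gene of its family, whose closed share of 36.4% was the largest of the families. Its named site upstream (chr10:77713728-77714391) read 3.61, 3.12 and 3.85 CPM in Control and 0.581 to 1.03 in the 6 combination libraries (log2 −2.00 ± 0.17, adjusted p = 6.69e-18, edgeR). Of the closed sites, 6 lay upstream in intergenic sequence and 2 in intron 1, where the strongest (chr10:77511601-77514518) went from 15.1 ± 2.72 CPM in Control to 5.97 ± 0.49 and 8.78 ± 0.805. shARID1B.2, at 15.8 CPM, stayed with Control at that site, and combined against single silencing gave −0.70 ± 0.07. The summed reads fell by 0.50.

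Among the small-conductance channels, KCNN2 and KCNN3 closed at 5 and 7 sites. The KCNN2 site 120.9 kb upstream (chr5:114312123-114313116) fell from 2.50, 2.30 and 2.53 CPM in Control to 0.591, 0.581 and 0.484 in shARID1A/B.2.3 and 0.986, 0.782 and 0.788 in shARID1A/B.4.2 (log2 −1.81 ± 0.20). The strongest KCNN3 site, over exon 1, read 15.7 ± 2.16 CPM in Control and 16.8 ± 2.07 and 20.8 ± 0.925 in the combinations, a change of 0.25 ± 0.09 whose adjusted p was 0.0369 (edgeR) and which passed the threshold without replicate 2 of shARID1A/B.2.3. KCNT2, a sodium-activated channel, had the most tested sites, 306, of which 11 closed. Its named site, in intergenic sequence far from the gene, read 7.22, 8.92 and 7.06 CPM in Control, 1.94, 1.91 and 1.85 in shARID1A/B.2.3 and 1.48, 2.03 and 1.90 in shARID1A/B.4.2 (log2 −2.06 ± 0.13, adjusted p = 6.51e-26, edgeR). The 4 single groups were intermediate at 2.69 to 3.72 CPM, with no detectable difference between ARID1A and ARID1B silencing (−0.17 ± 0.11, adjusted p = 0.466, edgeR).

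**Figure D4:**
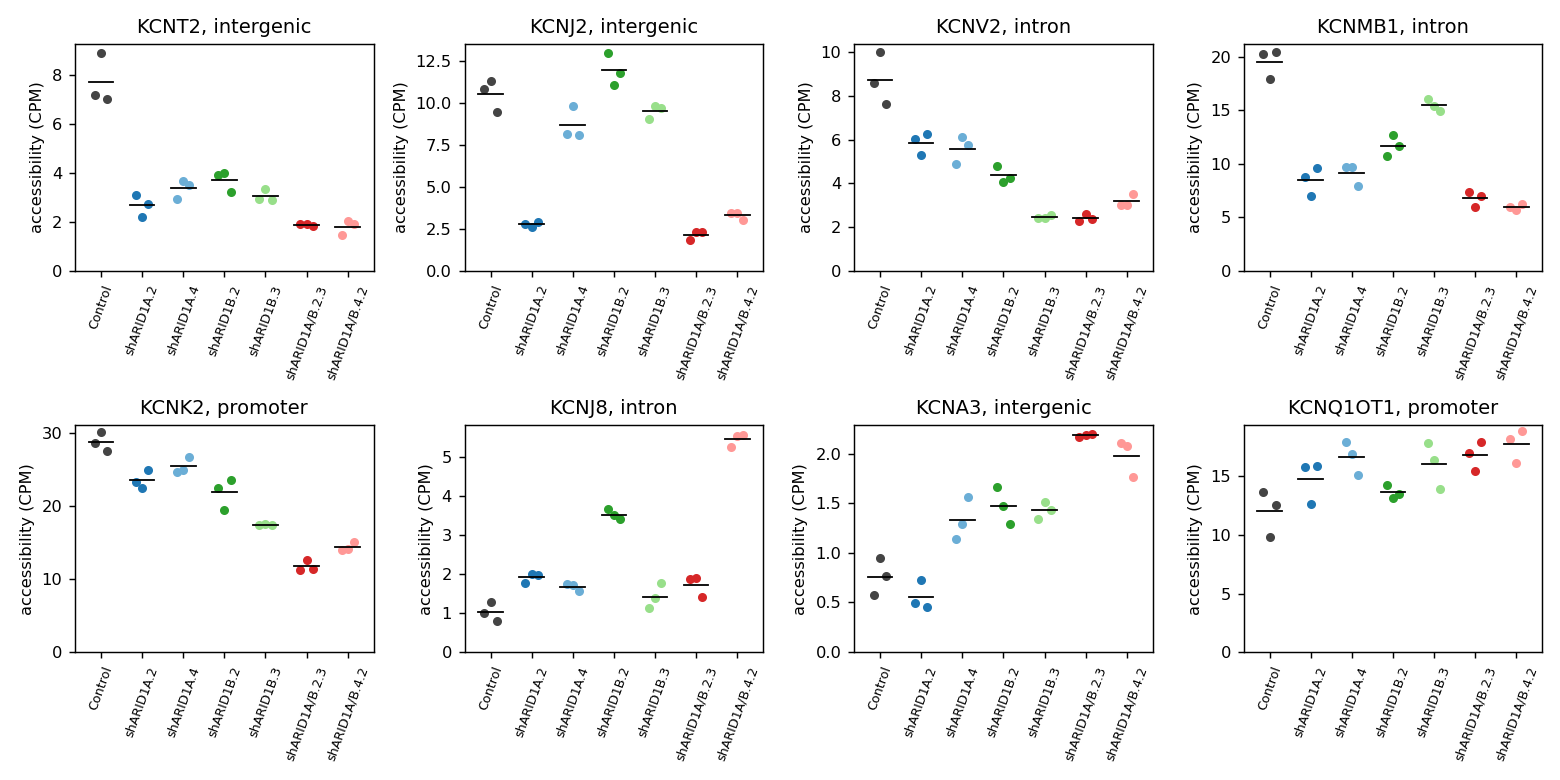
Accessibility in CPM of 8 KCN sites in the 21 libraries (points, 3 per group) with group means (black lines); the vertical axes start at 0 and differ between panels. The KCNT2, KCNJ2, KCNV2, KCNMB1 and KCNK2 sites are lower in both combinations than in Control, the KCNJ8, KCNA3 and KCNQ1OT1 sites higher, and shARID1A.2 alone of the single hairpins brings the KCNJ2 site down to 2.79 CPM.

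Several inward rectifier sites differed between hairpins of one target. KCNJ2 encodes Kir2.1, which holds the resting potential, and its 9 closed sites all lay 209.3 to 494.7 kb downstream. The named one (chr17:70394421-70395738) read 10.9, 11.3 and 9.50 CPM in Control, 1.84, 2.32 and 2.33 in shARID1A/B.2.3 and 3.45, 3.45 and 3.01 in shARID1A/B.4.2 (log2 −1.98 ± 0.11, adjusted p = 1.63e-28, edgeR). Of the single hairpins, shARID1A.2 read 2.81, 2.64 and 2.92 CPM, while shARID1A.4 (8.15, 9.84 and 8.08) and the ARID1B hairpins (9.04 to 13.0) stayed near Control. ARID1B silencing gave 0.02 ± 0.10, and the ARID1A effect differed from it by −1.11 ± 0.09, an average over hairpins with means of 2.79 and 8.69 CPM.

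KCNJ8, which encodes Kir6.1, the pore of vascular ATP-sensitive channels, held an opened site in an intron of ABCC9, its partner gene (chr12:21813262-21814007). It read 1.01, 1.27 and 0.802 CPM in Control, 5.24, 5.52 and 5.57 in shARID1A/B.4.2 and 1.87, 1.91 and 1.41 in shARID1A/B.2.3 (log2 1.59 ± 0.18, adjusted p = 2.77e-12, edgeR). Of the single hairpins shARID1B.2 was highest at 3.65, 3.50 and 3.40 CPM, and shARID1B.3, at 1.12 to 1.76 CPM, overlapped Control. Of the 11 KCNJ8 sites 3 opened and none closed.

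KCNJ11, the Kir6.2 pore, opened at its promoter (chr11:17388712-17390199) from 10.7, 9.41 and 11.8 CPM in Control to 17.4, 14.8 and 17.2 in shARID1A/B.2.3 and 18.4, 18.1 and 15.1 in shARID1A/B.4.2 (log2 0.66 ± 0.10, adjusted p = 3.15e-08, edgeR). Its 3 closed sites lay in introns of ABCC8, the neighbouring gene of its sulphonylurea receptor partner, at −0.70 to −0.98. KCNJ6 (GIRK2) closed at 2 of 5 sites by 1.64 and 2.44 on the log2 scale, while its exon 1 site read 5.50 ± 0.406 CPM in Control and 5.99 ± 0.261 and 6.10 ± 0.577 in the combinations (0.14 ± 0.11, adjusted p = 0.459, edgeR), a sign that turned to −0.10 under promoter scaling.

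KCNJ13 had the largest fall of a gene sum, and it rests on 1 site in an intron of GIGYF2. The summed value read 1.60, 1.71 and 1.55 CPM in Control, 0.460, 0.340 and 0.490 in shARID1A/B.2.3 and 1.10, 1.42 and 1.14 in shARID1A/B.4.2 (log2 −1.18 ± 0.18, adjusted p = 1.50e-05, edgeR). It moved in opposite directions under single silencing, down after ARID1A silencing (−0.79) and up after ARID1B silencing (0.67), with shARID1B.2 at 2.81, 3.87 and 2.73 CPM. The difference between these was −1.46 ± 0.13 (adjusted p = 8.84e-08, edgeR).

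Rises of KCNJ genes were small. The sums of KCNJ4, KCNJ18 and KCNJ9 rose by 0.42, 0.31 and 0.19, each lost under promoter scaling and without Control replicate 1. KCNJ12 and KCNJ18 are near-identical copies, so reads could be split between them and both are uncertain. The KCNJ family closed at 7.19% of 334 sites and opened at 2.69%, beside 10.3 and 3.43% of all sites.

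The leak channels (KCNK) closed at 52 of 360 sites (14.4% against 10.3% of all sites) and opened at 4 (1.11% against 3.43% of all sites), and 22 of the 52 lay at KCNK9. KCNK2 (TREK-1), a mechanosensitive leak channel, had the promoter with the largest fall (chr1:215003392-215005838). It read 28.6, 30.2 and 27.5 CPM in Control, 11.3, 12.6 and 11.3 in shARID1A/B.2.3 and 14.0, 14.2 and 15.1 in shARID1A/B.4.2 (log2 −1.14 ± 0.08, adjusted p = 1.17e-22, edgeR). Single silencing did less there, with −0.56 after ARID1B silencing and −0.23 after ARID1A silencing (adjusted p = 0.0366, edgeR), and combined against single silencing gave −0.75 ± 0.06. A second promoter of KCNK2, 77.3 kb downstream, did not pass (0.10 ± 0.09).

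KCNK10 (TREK-2) closed at 9 of 35 sites, all in its own introns and between 13.5 and 75.4 kb from the annotated start, with changes from −0.38 to −1.60, and its promoter gave 0.07 ± 0.09. KCNK13 closed at 3 of 8 sites, all in its single intron, where the strongest went from 17.1 to 6.15 CPM in shARID1A/B.2.3. KCNK16 fell by 0.55 in the sum, with 3 of its 5 closed sites in introns of KIF6. KCNK9 (TASK-3) had the most closed sites of any KCN gene, 22 of 126, a gene singled out after its values were seen, and 14 of these lay in introns of the neighbour TRAPPC9. The sums of these genes fell by 0.38 (KCNK10), 0.48 (KCNK13) and 0.40 (KCNK9).

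KCNK3 (TASK-1) opened at a site annotated as a promoter 31.7 kb from its nearest start, from 19.1, 14.7 and 20.97 CPM in Control to 26.1, 19.7 and 23.1 in shARID1A/B.2.3 and 29.3, 29.3 and 31.1 in shARID1A/B.4.2 (log2 0.52 ± 0.09, adjusted p = 4.74e-06, edgeR). One shARID1A/B.2.3 library lay within the Control range. Sums of KCNK15 and KCNK12 rose by 0.27 and 0.17, and both calls were lost under promoter scaling, where KCNK12 turned to −0.01, and without Control replicate 2.

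**Figure D5:**
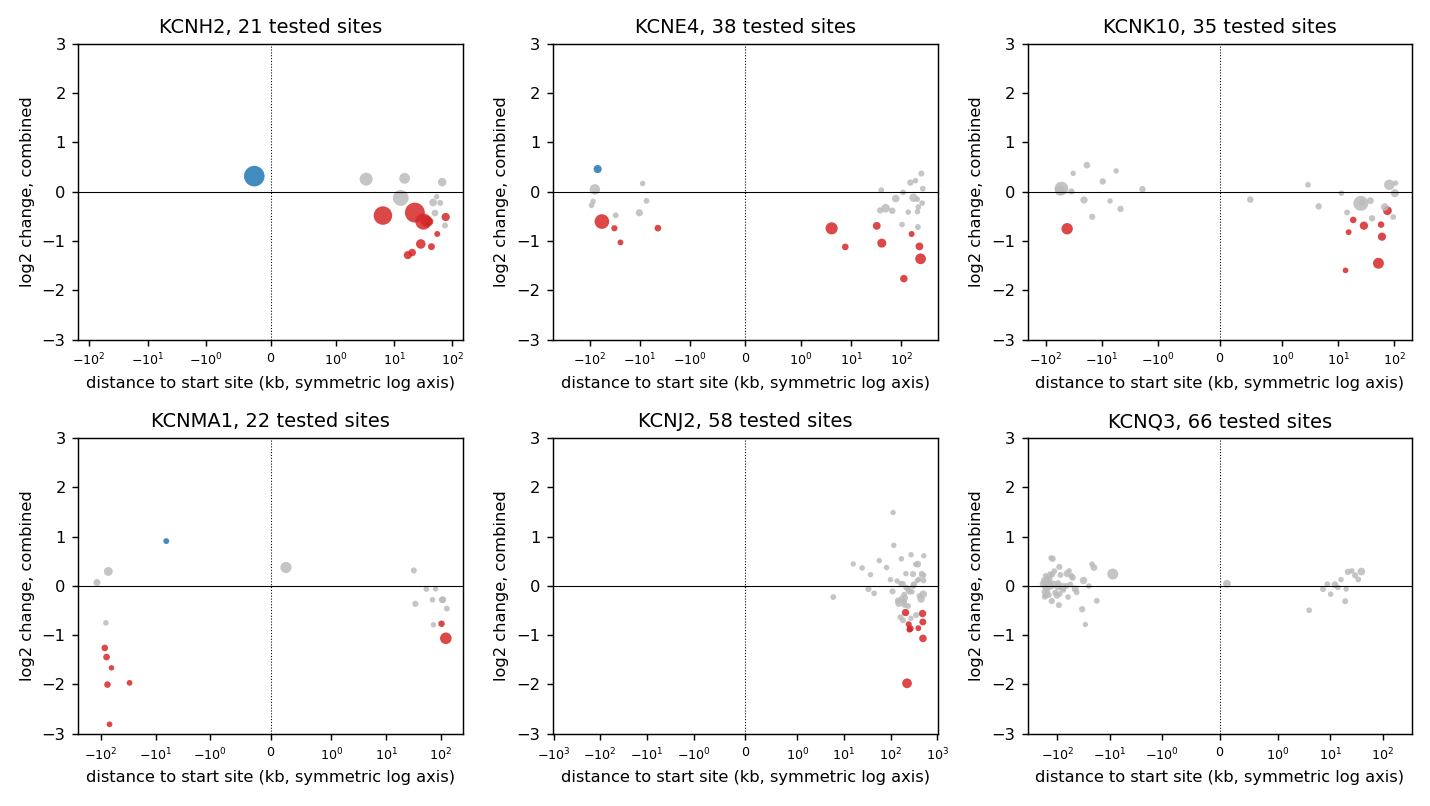
Log2 change after combined silencing against distance from the annotated start site in kb (symmetric log axis) for 6 KCN genes; red points closed, blue opened, grey were not called, and point area grows with mean CPM. KCNH2, KCNE4, KCNK10, KCNMA1 and KCNJ2 show 11, 12, 9, 8 and 9 closed sites away from the start, and KCNQ3 none.

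Beside the 10.3% of all tested sites that closed, the share ran, among the families, from 36.4% (KCNMA) and 23.2% (KCNE) through 16.2% (KCNH) and 13.5% (KCNN) to 5.24% (KCNA), 3.46% (KCNT), 3.38% (KCND) and 3.36% (KCNQ), and no KCNF1 site closed of 36. The KCNQ1 non-coding sites closed in 19.6%, while the promoter of KCNQ1OT1, the transcript that runs antisense within KCNQ1, opened from 13.7, 9.86 and 12.5 CPM in Control to 17.0, 15.5 and 17.98 in shARID1A/B.2.3 and 18.2, 16.2 and 18.9 in shARID1A/B.4.2 (log2 0.53 ± 0.10, adjusted p = 6.20e-06, edgeR). Some family shares rest on few genes. KCNMA is 1 gene, KCNE4 held 12 of the 16 closed KCNE sites, and KCNT2 held all 11 closed KCNT sites. KCNH2 and KCNH5 held 11 and 12 of the 32 closed KCNH sites. Members of a family share loci in part, and sites of a gene are not replicates. Among genes with at least 5 tested sites, large opened shares included 3 of 11 at KCNJ8, 2 of 10 at KCNJ18, 1 of 5 at KCNS1 and 3 of 24 at KCNG1. Of 95 genes, 17 had no called site, among them 10 with at least 5 tested sites: KCNK7, KCNK18, KCNJ10, KCNA1, KCNJ16, KCNT1, KCNK5, KCNC2, KCNQ3 and KCNV1. The same count was not made over all genes. The median strength of the sites of these 10 genes ran from 0.445 CPM at KCNT1 to 1.752 CPM at KCNK5. A gene without a called site may still have changed.

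Other ion channel genes give a scale for these shares. Voltage-gated sodium channel genes closed at 37 of 173 sites (21.4%) with a median log2 change of −0.20 and 6 of 13 genes lower in the sum. Calcium channel pore genes closed at 7 of 157 (4.46%), HCN genes at 10 of 170 (5.88%) and partner genes of potassium channels that lack the KCN symbol at 10 of 242 (4.13%), with median log2 changes of 0.11, 0.20 and 0.09. The KCN sites, at 9.09% and a median of 0.02, lay between these lists, and no test was made between them.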

How the data were processed

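ATAC-seq libraries were made from biological triplicates of 7 groups of SK-N-BE(2) cells. Per the labels and file headers, the authors aligned reads to GRCh38, called consensus sites and deposited raw read counts per site and library, with HOMER annotation of each site (nearest gene, genomic feature and distance in bases to its start site). No name or version of the aligner or the peak caller is given in the sources used here. The deposited tables also hold 36 columns of normalised counts and DESeq2 results (fold changes and p-values), none of which was used. The Control counts are repeated across tables, and the 15 repeated columns were identical.

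Counts of the 21 libraries were joined by site. Sites without a gene name (192, with 0.0503% of reads) stayed in the fit across sites and held no member. Sites under the minimum count of 10 in edgeR filterByExpr were removed (10871), the rest were scaled by TMM, and 1 quasi-likelihood model with a term per group was fitted to all libraries (edgeR 4.0.16 in R 4.3.3; biological coefficient of variation 0.082). Contrasts were averages of group coefficients, p-values were adjusted over all tested sites by the Benjamini-Hochberg method, and sites at an FDR under 0.01 were called closed (lower) or opened (higher). Reads summed over all sites with the same nearest gene were tested in the same way over genes. Standard errors, which follow the ± sign at log2 values, are the log2 change divided by the square root of the F statistic, and ± at CPM is the SD of 3 libraries. The p-values measure the spread between these libraries. Library totals ran from 16140029 to 44472230 reads in sites, and a deeper library measures a weak site with less counting error. On simulated counts of 50000 sites for the combined contrast, 200 sites were changed. Of changes of 1 on the log2 scale 50% were recovered, and of changes of 0.5 9%, with 0 false calls. A site without a call may thus still have changed. In the data, 10.3% of tested sites were called closed and 3.43% opened. The adjustment is stricter where few sites change, so the simulated rates do not carry over to these data.

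The members, gene lists and motifs were chosen with earlier results of these data known. Sites were named by rule, for the combined contrast: the 8 largest falls and 5 largest rises (a mean of at least 1 CPM, called for the average and for each combination, all combination libraries on one side of all Control libraries, 1 site a gene), the 3 largest falls and rises among called promoters, and the strongest site of 12 chosen genes whatever its change. Genes were named by the 8 largest closed and 5 largest opened shares among genes with at least 5 tested sites, by having no call, and by the 6 largest falls and rises of summed reads. Some genes, sites and motifs of these lists are not reported here, while counts over KCN sites and genes include them. Motifs were searched on both strands of the central 300 bases of each site, read from the GRCh38 reference. Alternatives were DESeq2 1.42.0, its size factors in edgeR (RLE), scaling factors from promoter sites, no filter, the replicate number as a block, thinning to the smallest library, and leaving out each library.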

Additional observations from a re-analysis of the deposited data

Results flagged for a closer look

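At 8 named KCN sites and for 3 gene sums, the effects of ARID1A and ARID1B silencing, both against Control, differed from each other by a direct test of ARID1A against ARID1B silencing (edgeR quasi-likelihood test, Benjamini-Hochberg adjustment over all tested sites or genes). The differences are given as the ARID1A minus the ARID1B log2 change. Hairpins against one target also differed from each other at several of these sites, and each effect is an average over a pair of hairpins.

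ARID1A silencing lowered accessibility more at 3 sites. At the intergenic KCNJ2 site the difference was −1.11 ± 0.09 (−1.10 after ARID1A and 0.02 after ARID1B silencing, adjusted p = 3.81e-18), with shARID1A.2 at a mean of 2.79 CPM and shARID1A.4 at 8.69. At the KCNE4 site it was −0.87 ± 0.12 (−1.35 and −0.49, adjusted p = 2.62e-08), and at the strongest KCNMB1 site −0.61 ± 0.08 (−1.15 and −0.54, adjusted p = 4.10e-09).

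ARID1B silencing lowered accessibility more at 3 other sites. The difference was 1.02 ± 0.17 at the KCNH1 site (−0.79 after ARID1A and −1.81 after ARID1B silencing, adjusted p = 2.13e-06), 0.80 ± 0.10 at the KCNV2 site (−0.61 and −1.41, adjusted p = 8.68e-10) and 0.32 ± 0.07 at the KCNK2 promoter (−0.23 and −0.56, adjusted p = 0.000156).

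The opened KCNA3 site rose more after ARID1B silencing (0.16 after ARID1A against 0.91 after ARID1B silencing, a difference of −0.75 ± 0.17, adjusted p = 0.00124). The exon 1 site of KCNJ6 gave 0.31 after ARID1A and −0.22 after ARID1B silencing, neither of which passed the test alone, with a difference of 0.53 ± 0.09 (adjusted p = 8.30e-06).

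Of the gene sums, KCNJ13, which rests on 1 site, fell after ARID1A silencing (−0.79) and rose after ARID1B silencing (0.67), a difference of −1.46 ± 0.13 (adjusted p = 8.84e-08). The sums of KCNE4 (−0.39 and −0.16, difference −0.23 ± 0.03, adjusted p = 8.06e-06) and KCNMB1 (−0.50 and −0.32, difference −0.19 ± 0.04, adjusted p = 0.00459) fell more after ARID1A silencing.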

How the results depend on the processing

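Scaling by promoter sites moved most counts, and the shares of all tested sites closed and opened moved in the same directions. KCN sites closed and opened were then 424 and 11 after combined, 259 and 8 after ARID1A and 151 and 10 after ARID1B silencing, 239 and 10 for shARID1A.4, 70 and 16 for shARID1B.2, 202 and 24 for shARID1B.3 and 441 and 14 for shARID1A/B.4.2. Opened sites were 8 for combined against single silencing, 7 for shARID1A.2 and 27 for shARID1A/B.2.3. KCN promoters were 11 closed and 4 opened, 1 gene sum was higher after combined silencing, and 40 and 24 were lower after ARID1A and ARID1B silencing. The small rises of KCNQ5, KCNJ6 and KCNIP4, none of them called, turned to −0.14, −0.10 and −0.22, and the sum of KCNK12 to −0.006.

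DESeq2 opened 33 KCN sites after combined silencing, 8 for combined against single silencing, 37 for shARID1B.3 and 29 for shARID1A/B.2.3, closed 25 for shARID1B.2, and called 4 gene sums higher after ARID1A silencing, which were 2 with RLE size factors, without a filter and with the block. After thinning, 40 sites opened in shARID1B.3, 2 promoters closed, 9 gene sums were lower after ARID1B silencing, and KCNIP4 stood at −0.073. The cause was not tested. Of the 42 called gene sums, 2 lost their call under DESeq2, 2 with RLE size factors, 1 without a filter, 9 after thinning and 0 with the block, while the 29 log2 changes of named sites kept their direction and call under DESeq2, RLE size factors and no filter.

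Leaving out 1 library at a time gave these ranges. Opened KCN sites ran from 33 (without Control replicate 2) to 72 (without replicate 2 of shARID1A/B.2.3) after combined silencing, from 9 (without Control replicate 2) to 32 after ARID1A silencing, from 15 (without Control replicate 2) to 27 after ARID1B silencing, and from 11 (without replicate 2 of shARID1A/B.4.2; 12 without replicate 3 of shARID1A.2) to 21 for combined against single silencing. They ran from 9 to 19 (without replicate 2) for shARID1A.2, from 18 (without Control replicate 2; 20 without replicate 1) to 42 for shARID1A.4, from 13 (without replicate 3; 16 without replicate 2) to 22 for shARID1B.2, and from 28 (without Control replicate 2; 36 and 38 without replicates 2 and 1) to 60 for shARID1B.3. Closed sites for shARID1B.2 ran from 26 to 36, with fewer than 30 without any library except Control replicate 2. KCN promoters ran from 3 to 6 closed and from 6 to 16 opened. Gene sums higher ran from 3 (without Control replicate 1 or 2) to 8 after combined silencing and from 1 to 5 (without Control replicate 3) after ARID1A silencing, and gene sums lower after ARID1B silencing from 8 (without Control replicate 3) to 12. KCNIP4 ran from −0.028 (without Control replicate 3) to 0.051, with −0.021 and −0.023 without replicate 1 of shARID1A/B.2.3 and replicate 3 of shARID1A/B.4.2.

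The labels do not say that a replicate number marks a shared culture or day. Over 63 same-number pairs of libraries from different groups, the correlation of their deviations from the group means ran from −0.311 to 0.506 with a median of 0.012, 14 pairs exceeded 0.1, and 13 of 21 libraries correlated best with their own number. Of the 21 pairs of groups, Control and shARID1A/B.2.3 alone exceeded 0.1 at every number (0.194, 0.506 and 0.207), and with the block that comparison closed 278 and opened 62 KCN sites, in place of 269 and 50. With the replicate number as a block, 0 of 22 counts of sites and 1 of 6 counts of gene sums (2 in place of 1 higher after ARID1A silencing) moved by over 1.5 times, and no named site or called gene sum changed its call in the combined contrast.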
